A study of Gallus gallus with 16 samples.

Results

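Broad H3K4me3 domains are stretches of chromatin in which trimethylation of lysine 4 of histone H3 runs on far beyond the usual short peak at a gene start. Here a broad domain was built from every H3K4me3 peak of 5000 bp or more in the normoxia or the hypoxia peak list of chick lens fiber cells, with overlapping peaks of the 2 lists merged. This gave 1755 domains. They come from 1283 of the 22288 normoxia peaks (5.76%) and 1529 of the 24987 hypoxia peaks (6.12%), and 1747 of the 31639 merged H3K4me3 regions (5.52%) hold a domain. The whole series lists 108520 unique peaks of 2 marks. Because peak width chose the domains, every H3K4me3 width below is a description. The H3K27ac values did not enter the choice.

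H3K4me3 is deposited around active gene starts by the SET1 and MLL methyltransferase complexes and is usually a short peak just downstream of the start. In many cell types a minority of genes carry the mark over a much longer stretch, and cell identity and regulatory genes are known to be frequent among them. H3K27ac, acetylation of lysine 27 of the same histone by p300 and CBP, marks active promoters and enhancers. Demethylation of H3K4me3 by the KDM5 enzymes needs molecular oxygen.

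The marks were profiled by CUT&RUN, in which an antibody tethers a nuclease that cuts out the DNA beneath the mark. Lenses of White Leghorn chick embryos at embryonic day 13, in culture medium with fetal bovine serum, were held, per the labels, for 2 h in either 21% oxygen, called normoxia, or 1% oxygen, called hypoxia. Each replicate pooled 10 to 15 lenses, from which the fiber cells were dissected, the long cells that make up the bulk of the lens. The labels list 3 H3K4me3 and 2 H3K27ac libraries per condition, but each mark is given as 1 peak list per condition, so none of the differences below has a replicate check, and the read depth behind each list is unknown. The extraction text of the labels speaks of 0 h and 2 h of hypoxia, so whether the normoxia lenses spent 2 h in culture cannot be told. Fewer marked cells and a shorter mark in each cell cannot be told apart in dissected tissue.

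The domains ranged from 5000 to 43035 bp, with a median of 6773 bp and quartiles of 5750 and 9259.5 bp. Of the 1755, 366 were 10 kb or longer and 50 were 20 kb or longer. Together they spanned 14.7 Mb. They held 32.9% of all H3K4me3 length in the normoxia list and 32.4% in the hypoxia list, but only 17.6% and 13.4% of the H3K27ac length. In 1424 domains (81.1%) the peak lay within 3000 bp of an annotated transcription start, called the promoter below. Of these, 1152 had 1 promoter gene, 242 had a pair of genes and 30 had 3 or more, so a domain shared by neighbours cannot be given to one of them.

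The longest domain lay over the promoter of TNRC6B, which encodes a scaffold protein of microRNA silencing, at chromosome 1, 50153453 to 50196487 (galGal6, as all positions here). It was 1 hypoxia peak of 43035 bp, whereas the normoxia list held 4 peaks there, the widest 19962 bp, that covered 38594 bp. HIPK3, a protein kinase gene on chromosome 5 (7183974 to 7226664), had the opposite arrangement. Its widest normoxia peak of 40620 bp faced a widest hypoxia peak of 19158 bp, but the covered lengths were 40950 and 41106 bp. SPTBN1, the gene of the beta-spectrin of the membrane skeleton, held 37671 bp in hypoxia and 36807 bp in normoxia, on chromosome 3 from 2783382 to 2821231. A domain of 35434 bp on chromosome 19 (5098716 to 5134149) spanned the promoters of ASL1, which encodes delta-crystallin, the abundant taxon-specific crystallin of the bird lens, of CRCP and of TPST1. The domain of SOX2, a transcription factor of lens induction, was almost the same in both lists, at 32332 bp in normoxia and 32256 bp in hypoxia (chromosome 9, 17010604 to 17042935). The other domains among the 10 longest covered the promoters of ANKIB1 and KRIT1, of FN3K, FN3KRP and RAB40B, of HERC4 and MYPN, of SBNO2 and STK11, and of ARHGAP12. At SOX2 and SPTBN1 the widest peaks were alike in the lists, whereas TNRC6B and HIPK3 had similar covered lengths divided differently into peaks.

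Every domain had an H3K4me3 peak in both lists. In 1013 domains (57.7%, exact 95% binomial interval 55.4 to 60.0%) a peak of 5000 bp or more was present in both conditions, in 495 (28.2%) only in hypoxia and in 247 (14.1%) only in normoxia. All 50 domains of 20 kb or more were broad in both. The interval covers the counting of domains only. Most of the one-sided domains sat close to the limit in the other list: its widest peak was at least 4000 bp at 259 of the 495 and at 136 of the 247. Under 2500 bp it was at 44 and 23.

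**Figure D1:**
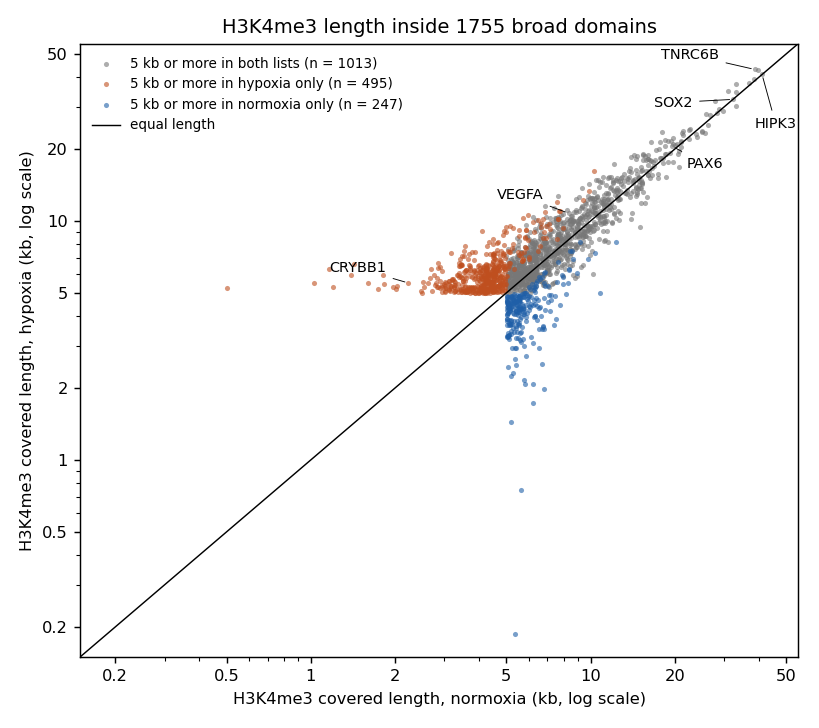
H3K4me3 covered length inside each of the 1755 domains in normoxia (horizontal, kb, log scale) against hypoxia (vertical, kb, log scale). Each point is 1 domain, coloured by the list or lists in which it has a peak of 5 kb or more. The 1013 domains broad in both lists lie along the line of equal length, and the straight inner edges of the other groups are set by the 5 kb limit.

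The median covered length of H3K4me3 per domain was 5996 bp for normoxia and 6410 bp for hypoxia. The median log2 ratio of hypoxia over normoxia was 0.13, while that of all 13895 H3K4me3 regions found in both lists was 0.10, nearly as much. The summed H3K4me3 length in normoxia and hypoxia was 38.6 and 42.4 Mb over the whole lists, and 12.7 and 13.7 Mb inside the domains. Of the domains, 925 had a log2 ratio above the 0.10 of the regions in both lists and 830 below. The direction itself depended on which list chose the domains: for domains chosen on the normoxia list alone the median was -0.09, and on the hypoxia list alone 0.22. Within the 1013 domains broad in both it was 0.07, with quartiles of -0.07 and 0.21. Domains at least 1.5-fold longer in hypoxia numbered 186 (10.6%) and at least 1.5-fold shorter 71 (4.05%). Among all regions in both lists the shares were 19.8% and 12.6%, and among regions with a peak of 2 kb or more 16% and 7.44%. The domains' shares lay below both.

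The lists also differed in how a domain was divided into peaks. A domain broad in 1 list only is, by the rule, a single peak of that list. This fixed the hypoxia count at 1 in 495 domains and the normoxia count at 1 in 247. The counts of peaks are thus tilted by the choice of domains and are a description. There were more peaks in normoxia than in hypoxia at 418 domains, fewer at 274 and equally many at 1063. The normoxia list had 2 or more peaks in 457 domains (26.0%) and the hypoxia list in 308 (17.6%). The width of the widest peak differed 1.5-fold or more at 486 domains, and at 241 of these the covered length was within 1.5-fold. At those 241 a similar covered length was divided differently into peaks.

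By log2 ratio, the 5 largest differences of H3K4me3 length in each direction were at domains of under 7 kb, of which all but 1 lay away from promoters. A domain annotated to IGDCC4 on chromosome 10 (18430637 to 18435855) held 501 bp of H3K4me3 in normoxia and 5219 bp in hypoxia, and H3K27ac there covered 2063 and 5219 bp. Others with far longer hypoxia coverage were annotated to RIT1 (1163 and 6273 bp), FOXN3 (1030 and 5515 bp) and CDC37L1 (1425 and 6603 bp), and 1 lay at a promoter of FOXP4, a forkhead factor (1203 and 5310 bp). A longer promoter domain of FOXP4 went the other way, with 8406 bp in normoxia and 6476 bp in hypoxia. In the other direction, a domain annotated to TMEM47 held 5352 bp in normoxia and 187 bp in hypoxia. Those annotated to STAMBPL1 (5646 and 745 bp), FASLG (5177 and 1441 bp), DUSP16 (6198 and 1729 bp) and CRYGN (6806 and 1972 bp) followed. Only bases inside the borders of a domain count here. At STAMBPL1 the widest hypoxia peak measured 3535 bp in full, most of it outside the domain. At the limit itself, by the full width of the widest peak, the members just inside were ASXL3 (4179 bp in normoxia, 5000 bp in hypoxia), SEC62 (4396 and 5001 bp), the shared promoter of AAMDC and RSF1 (4522 and 5002 bp) and NKD1 (3863 and 5003 bp). Just outside were peaks of 4999 bp near FOXP1 and at EEPD1 and of 4994 bp near TACC2.

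A broad domain lay at the promoter of 1696 genes, which is 15.6% of the 10846 genes with any H3K4me3 promoter peak. In the normoxia list 1195 genes had one (11% of those with a promoter peak), in the hypoxia list 1471 (13.6%), and 970 had one in both. Counts below of genes broad in normoxia, hypoxia or both are read beside these 1195, 1471 and 970 of the 1696. Shares for the gene lists below are read beside the 15.6%, without a test, and their exact 95% intervals cover the counting of genes only. The gene lists were chosen with earlier results of these data known, so their shares and ranking are descriptions.

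Transcription factors of lens development had the highest share of the lists with 8 or more such genes, 17 of 23 (73.9%, interval 51.6 to 89.8%). Of the 17, 15 were broad in both lists, beside 970 of all 1696 genes with a domain. SOX2 was followed by SIX3, a homeobox factor of the lens and forebrain, whose domain held 23966 bp in normoxia and 22396 bp in hypoxia. SOX1, needed for fiber elongation in the mouse, held 16424 and 21307 bp. PAX6, the paired-box factor at the head of eye development, held 19507 bp in normoxia and 20562 bp in hypoxia on chromosome 5, 5447530 to 5468109. PROX1, a homeobox factor of fiber differentiation, held 18599 and 19056 bp, and MAF, which activates crystallin genes, 12266 and 12864 bp. At PAX6, PROX1 and MAF the H3K4me3 length was slightly longer in hypoxia, by log2 ratios of 0.08, 0.04 and 0.07. These are below the median of 0.10 of all regions in both lists.

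H3K27ac inside the domains of these factors varied more than H3K4me3, but H3K4me3 width chose the domains and H3K27ac did not. The whole H3K27ac list was also 3.34 times as long in hypoxia, so the comparison of the marks is a description only. At PAX6 H3K27ac covered 5113 bp in normoxia and 7198 bp in hypoxia, at PROX1 8683 and 13100 bp, and at MAF 6524 and 8328 bp. At SOX2 it covered 1734 bp, or 5.36% of the domain, in normoxia, and in hypoxia 7053 bp, or 21.8%. SIX3 went the other way, with 10850 and 8639 bp, as did GATA3, which encodes a zinc finger factor of fiber cell cycle exit in the mouse, with 4362 and 2457 bp. Of the 17 domains, 13 had H3K27ac in both lists, 3 in hypoxia only (SALL1, MAFK and EYA1) and 1, that of MEIS1, in normoxia only, where it covered 482 bp. Over all domains these shares were 71.3%, 24.0% and 1.71%. H3K27ac length was at least 2-fold higher in hypoxia at 5 of the 13 and at least 2-fold lower at 1, that of SALL4. Of all 1252 domains with H3K27ac in both lists, 57.8% were at least 2-fold higher in hypoxia and 4.07% at least 2-fold lower. Across all H3K4me3 regions with it in both lists, 41.1% were at least 2-fold higher in hypoxia and 7.71% at least 2-fold lower. Those regions are of every width, so they are not matched to the domains in width.

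**Figure D2:**
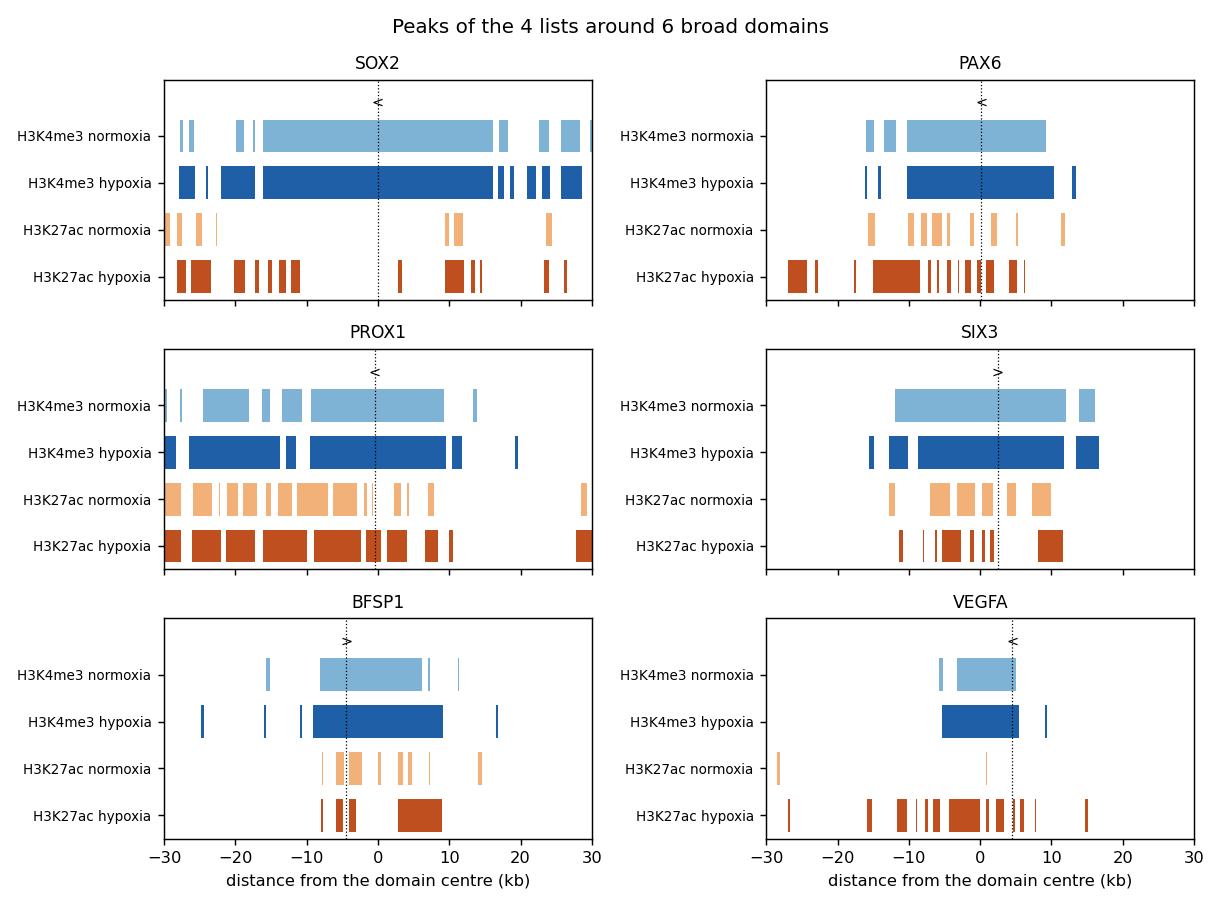
Peaks of the 4 lists within 30 kb of the centre of 6 domains, with distance from the domain centre in kb on the horizontal axis and 1 row per list. Bars are peaks, and a dotted line with an arrowhead marks the gene start and direction placed from the table's distances. H3K4me3 forms the long bars in both conditions, while H3K27ac forms shorter bars within and around them. H3K27ac in the VEGFA domain covers 170 bp in normoxia and 6208 bp in hypoxia.

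PROX1 and SOX2 were each annotated to 3 domains. Apart from its promoter domain, PROX1 had a domain of 12695 bp (H3K4me3 7623 bp in normoxia, 12695 bp in hypoxia) 13316 bp downstream of its start and a further one of 13529 bp (11400 and 12217 bp) 27840 bp downstream, both annotated to exons. H3K27ac covered 60.4% and 81.3% of the first and 47.5% and 56.2% of the second, in normoxia and hypoxia. The domains near SOX2 lay upstream in intergenic sequence, at distances of -31780 and -39816 bp from the start, and held 2513 and 8448 bp of H3K4me3 in normoxia and 5534 and 9685 bp in hypoxia. Only 24 genes were annotated to 3 or more domains, with BASP1, CHD2 and CDC37L1 at 4 among them.

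Structural genes of the fiber cell came next, with a broad domain at 13 of 21 promoters (61.9%, interval 38.4 to 81.9%). All 13 were broad in the hypoxia list and 10 in the normoxia list, beside 1471 and 1195 of all 1696 genes with a domain. BFSP1 and BFSP2 encode the beaded filament proteins of the fiber cell. The BFSP1 domain on chromosome 3 held 14505 bp in normoxia and 18179 bp in hypoxia, with 4908 and 8461 bp of H3K27ac. The BFSP2 domain held 14444 and 14932 bp, with 2097 and 6878 bp of H3K27ac. MIP, the gene of the lens water channel aquaporin 0, shared a domain on chromosome 33 with APOF, RBMS2, STAT2 and TIMELESS, which held 13979 bp in normoxia and 18518 bp in hypoxia. GJA3, which encodes a connexin of fiber gap junctions, had a pair of domains: one held 6478 and 6928 bp of H3K4me3 with 4261 and 1992 bp of H3K27ac, and the other 4973 and 8952 bp of H3K4me3 with 6360 and 5770 bp of H3K27ac. TDRD7, an RNA granule gene whose loss causes cataract in humans and mice, held 7179 and 9766 bp of H3K4me3, with 223 and 5265 bp of H3K27ac. The 15 domains of this group had a median length of 9766 bp, beside 6773 bp for all domains. At 14 of the 15 H3K27ac was in both lists, beside 71.3% of all domains and 82.0% of regions with a peak of 10 kb or more. At 8 of these 14 it was at least 2-fold higher in hypoxia, a share near the 57.8% of all domains with both.

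Of 10 crystallin genes of this list with a promoter peak, 3 had a broad domain, beside 15.6% of all genes. They were ASL1, CRYAB and CRYBB1, the last 2 in the hypoxia list only: CRYAB, the alpha-B crystallin gene that shares its domain with HSPB2, held 3636 bp at 21% and 6087 bp at 1% oxygen, and CRYBB1, a beta-crystallin gene that shares it with TPST2, 2232 and 5499 bp. The normoxia peak at CRYAB measured 4521 bp in full, partly outside the domain. The promoter peaks of CRYBA1, CRYBA2, CRYBA4, CRYBB2, CRYBB3, CRYGN and CRYGS were narrower than 5000 bp in both lists, the widest being 4740 bp at CRYBA2 in hypoxia. CRYAA, the alpha-A crystallin gene, had no H3K4me3 peak within 3000 bp of its start, but a domain annotated to it 3091 bp downstream (chromosome 1, 111074861 to 111080143) held 3256 bp in normoxia and 5283 bp in hypoxia. H3K27ac covered 68.8% of that domain in normoxia and 99.0% in hypoxia. Among lens epithelium genes 6 of 13 (46.2%) had a domain. All 6 were broad in the hypoxia list and 4 in the normoxia list, beside 1471 and 1195 of all 1696 genes with a domain. The 6 included JAG1, a Notch ligand (9345 and 13722 bp), and CDH2, N-cadherin (12163 and 10707 bp). Both also belong to other lists below, so they do not stand for the epithelium alone. CDH1, KRT8, KRT18, NOTCH2, SPARC, COL4A1 and COL4A2 of the epithelium list had promoter peaks but no domain.

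In the lists of genes that mark other cells of the eye or the embryo, a minority of genes with any peak had an H3K4me3 promoter peak. The same share over all genes is not given here, so these counts have no background beside them. Among 16 retina and neuron genes with any peak, 3 had one, and 1 of the 3, ELAVL4, had a domain (5604 bp in normoxia, 5369 bp in hypoxia). Among 13 blood and vessel genes with any peak, 5 had a promoter peak, and 1 of the 5, LMO2, had a domain (10399 and 11056 bp). Both shares are above the 15.6% of all genes but rest on these few genes. No domain lay at the 3 mesenchyme and cornea genes, of 10 with any peak, or at the 1 pigment epithelium gene, of 7, that had promoter peaks. The contribution of other cells to the domains was not tested.

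**Figure D3:**
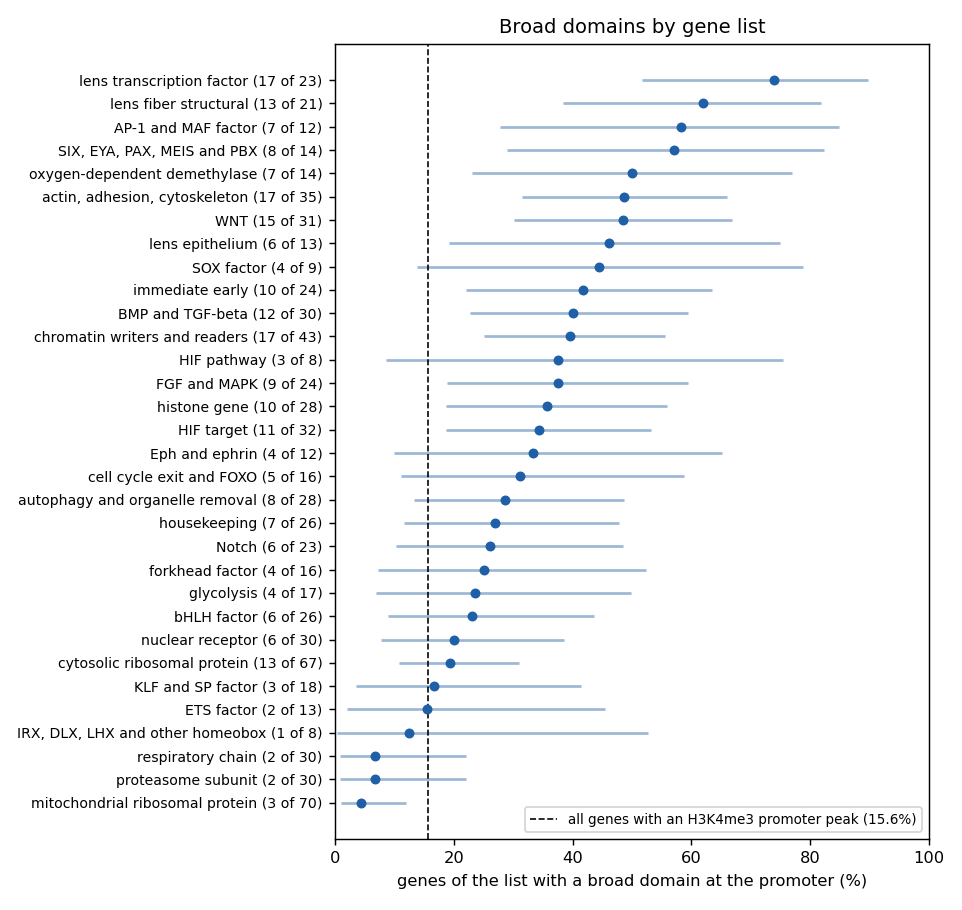
Share of the genes with an H3K4me3 promoter peak that have a broad domain (horizontal, %), for each gene list with at least 8 such genes, with the counts in brackets. Points are shares, bars are exact 95% binomial intervals that cover the counting of genes only, and the dashed line is the 15.6% of all genes with a promoter peak. Lens transcription factors (73.9%) lie highest and mitochondrial ribosomal proteins (4.29%) lowest. The lists were chosen with earlier results of these data known.

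The oxygen sensing pathway was represented by 3 of 8 genes. In this pathway prolyl hydroxylases use oxygen to mark the HIF alpha subunits, and VHL directs the marked protein to degradation. HIF1A, the gene of the main alpha subunit, held 8614 bp of H3K4me3 in normoxia and 9451 bp in hypoxia, and its H3K27ac length was nearly equal, 5047 and 5076 bp. VHL, in a domain shared with IRAK2, held 7622 and 7340 bp, with H3K27ac of 256 and 3721 bp. EGLN3, a prolyl hydroxylase gene, held 5029 and 4245 bp and was broad in normoxia only, with H3K27ac in hypoxia only (679 bp). Its hypoxia H3K4me3 peak measured 4697 bp in full, partly outside the domain.

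Of 32 known HIF target genes with a promoter peak, 11 (34.4%, interval 18.6 to 53.2%) had a domain, 9 in each list. VEGFA, the vascular growth factor gene on chromosome 3 (30786661 to 30797424), held 8344 bp of H3K4me3 in normoxia and 10764 bp in hypoxia, and its H3K27ac covered 1.58% of the domain in normoxia and 57.7% in hypoxia. BNIP3L, a mitophagy receptor gene, held 6467 and 7413 bp of H3K4me3 with 1238 and 4302 bp of H3K27ac. NDRG1 held 11951 and 9908 bp of H3K4me3, shorter in hypoxia, with 1694 and 5489 bp of H3K27ac. SLC2A1, the glucose transporter gene, held 7876 and 9344 bp with 1581 and 3184 bp of H3K27ac. PFKFB3 and ENO1, a regulator and an enzyme of glycolysis, had domains of 6250 and 6424 bp and no H3K27ac peak in either list. At the domain of PLOD1 and KIAA2013 both marks were shorter in hypoxia, with H3K4me3 of 6495 and 4654 bp. Of the 11 domains, H3K27ac was in both lists at 6, in hypoxia only at 3 and in neither at 2. Over all domains these shares were 71.3%, 24.0% and 2.91%. Of the 6, 5 were at least 2-fold higher and 1 at least 2-fold lower in hypoxia. Over all domains with both, 57.8% were at least 2-fold higher and 4.07% at least 2-fold lower.

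Genes of the oxygen-dependent demethylase families had a domain at 7 of 14 promoters (50.0%, interval 23.0 to 77.0%). All 7 were broad in the hypoxia list and 4 in the normoxia list, beside 1471 and 1195 of all 1696 genes with a domain. TET2, which oxidises methylated cytosine, had a domain of 25045 bp with 25000 bp of H3K4me3 in normoxia and 23476 bp in hypoxia, and H3K27ac there was 0 bp and 4496 bp. Another promoter domain of TET2 held 6579 and 5711 bp of H3K4me3, with no H3K27ac in either list. KDM5B, an H3K4me3 demethylase gene, held 3671 bp in normoxia and 7303 bp in hypoxia, with H3K27ac of 1996 and 1951 bp. Its relative KDM5A held 6716 and 6613 bp, with 2804 and 2801 bp of H3K27ac. JARID2, a Polycomb partner counted here as a family member although it lacks demethylase activity, held 8668 and 5956 bp. The KDM5 genes thus had near equal H3K27ac in the lists whether the H3K4me3 length was alike (KDM5A) or not (KDM5B).

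Of the immediate early genes 10 of 24 (41.7%, interval 22.1 to 63.4%) had a domain. All 10 were broad in both lists, beside 970 of all 1696 genes with a domain. MYC held 5513 bp in normoxia and 7726 bp in hypoxia. Its H3K27ac, of 2023 bp, was listed in hypoxia only. FOS held 5297 and 7011 bp, while its H3K27ac covered 492 and 165 bp. BTG2, an antiproliferative gene, had 1501 bp of H3K27ac in normoxia and none in hypoxia, and ATF3 had none in either. H3K27ac was at least 2-fold higher in hypoxia at 1 of the 5 domains with the mark in both lists and at least 2-fold lower at 1, beside 57.8% and 4.07% over all domains. Cell cycle exit genes had a domain at 5 of 16. CDKN1B, which encodes the inhibitor p27 that holds fiber cells out of the cycle, held 9292 and 7633 bp of H3K4me3, shorter in hypoxia, with 1057 and 4296 bp of H3K27ac.

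Signalling genes were also frequent among the domains. In the WNT list 15 of 31 genes (48.4%) had one, led by WNT7B (15714 bp in normoxia, 16228 bp in hypoxia), and the promoters of CTNNB1, the beta-catenin gene, carried a pair. In the BMP and TGF-beta list there were 12 of 30 (40.0%), with TGFB2, a ligand gene, at 9933 and 7227 bp and the receptor gene BMPR1A at 7200 and 9037 bp. In the FGF list there were 9 of 24 (37.5%). FGFR3, a receptor gene, held 25092 and 23710 bp, with H3K27ac of 8164 and 10675 bp, and FGFR1 held 2779 and 5380 bp. FGFR2 stayed just below the limit at 4933 bp in normoxia and measured 3358 bp in hypoxia. Actin, adhesion and cytoskeleton genes reached 17 of 35 (48.6%), with SPTBN1, CDH2 and the non-muscle myosin gene MYH9 (7984 and 10717 bp) the longest. Notch pathway genes had 6 of 23 and Eph and ephrin genes 4 of 12, where EFNB2, an ephrin gene, held 12531 and 13463 bp of H3K4me3 and 1906 and 8750 bp of H3K27ac. The target gene HES1 and the lens gene EPHA2 had promoter peaks of at most 4049 and 3234 bp.

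Among genes of basic cell machinery the shares lay on either side of the 15.6%. Of 26 housekeeping genes 7 (26.9%) had a domain. Mitochondrial ribosomal proteins had a domain at 3 of 70 promoters (4.29%, interval 0.893 to 12.0%), respiratory chain subunits at 2 of 30 (6.67%) and proteasome subunits at 2 of 30. None of the mitochondrial ribosomal or respiratory chain genes was the only promoter gene of its domain. Cytosolic ribosomal proteins had 13 of 67 (19.4%, interval 10.8 to 30.9%), and only 2 of the 13 did not share the domain with a neighbour. All 10 histone genes with a domain, of 28, lay in 5 domains shared between genes. Chromatin writers and readers had 17 of 43 (39.5%), among them KMT2E, SETD1A and EP300.

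H3K27ac was present in both lists inside 1252 domains (71.3%, exact 95% interval 69.2 to 73.4%), in hypoxia only in 422 (24.0%), in normoxia only in 30 (1.71%) and in neither in 51 (2.91%). Over all merged H3K4me3 regions these shares were 20.5%, 25.7%, 4.17% and 49.6%. A longer region has more room for a peak, and the share with both grew with the width of the widest H3K4me3 peak, from 56.8% at 4 to 5 kb to 69.4% at 5 to 10 kb and 82.0% at 10 kb or more. The share of summed length covered by H3K27ac was nearly level above 2 kb, between 12.8 and 13.9% in normoxia and between 31.6 and 33.5% in hypoxia. Per kilobase, the domains thus held about as much H3K27ac as ordinary H3K4me3 regions of 2 to 5 kb.

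**Figure D4:**
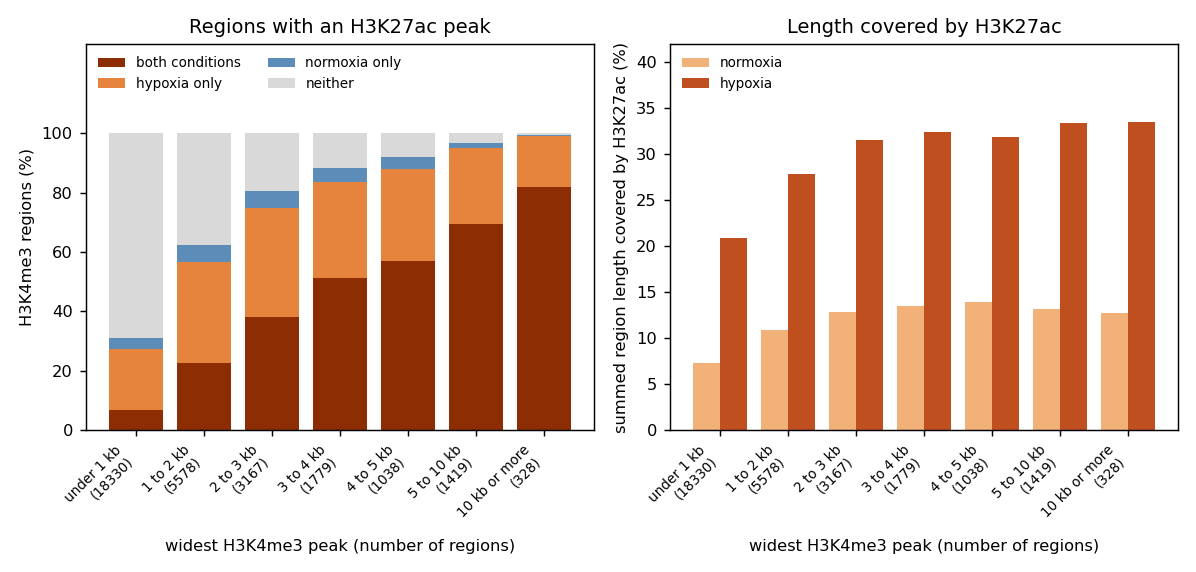
H3K27ac in merged H3K4me3 regions by the width of their widest H3K4me3 peak, with the number of regions in brackets. Stacked bars on the left give the percentage of regions with an H3K27ac peak in both conditions, in 1 or in neither, and bars on the right the percentage of summed region length covered in normoxia and hypoxia. The share with both grows to 82.0% while the covered length is nearly level from 2 kb upwards.

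The median domain was covered by H3K27ac over 9.23% of its length in normoxia and 31.0% in hypoxia. H3K27ac length was longer in hypoxia at 1486 domains, shorter at 217 and equal at 52. In the 1252 domains with both, the median log2 ratio was 1.23, a 2.35-fold longer coverage. It was at least 2-fold higher at 724 (57.8%, where 41.1% of all regions with both were) and at least 2-fold lower at 51 (4.07%, where 7.71% were). The H3K27ac list as a whole was also longer in hypoxia, and by more than inside the domains. Its summed length in hypoxia was 2.54 times that in normoxia inside the domains, 3.52 times outside them and 3.34 times over the whole list. The median log2 ratio rose with the width of the widest H3K4me3 peak. It was 0.079 under 1 kb, 0.75 at 2 to 3 kb and 0.93 at 4 to 5 kb. At 10 kb or more it was 1.40. The 41.1% and 7.71% come from regions of every width, so they are not matched to the domains in width. At 2 to 3 kb the summed length differed by a factor of 2.45, near that inside the domains. The summed H3K27ac length was longer in hypoxia in each width class, by factors from 2.29 to 2.87.

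The largest gains in covered bases were at SPTBN1 (4226 bp in normoxia, 16692 bp in hypoxia), at CELF1, an RNA-binding protein gene (2952 and 15106 bp), at CPEB4, which encodes a binder of polyadenylation elements (3026 and 14509 bp), at HIPK3 (4884 and 15376 bp) and at TRPM1, a cation channel gene (4094 and 14092 bp, 93.4% of the domain). These domains were picked for their H3K27ac gain, after H3K4me3 width had chosen all domains. Their H3K4me3 lengths differed far less, with log2 ratios from -0.05 to 0.23. The largest losses were smaller. They were annotated to AMER3 (4807 and 1589 bp), SOX1 at a domain away from its promoter (11033 and 8559 bp) and EPB41 (2717 and 423 bp), and lay at the promoters of GJA3 and SIX3 given above. SOX1 thus had a domain with more H3K27ac in hypoxia at its promoter (2827 and 10578 bp) and a neighbour with less.

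Among the 51 domains without H3K27ac in either list, the longest were at the gene ENSGALG00000011609 (22321 bp, chromosome 5, 18883577 to 18905897), at NCOA2, a nuclear receptor coactivator gene (13865 bp), near CTNNA2 (9682 bp), at the nuclear receptor gene NR2F1 (8916 bp), near KLF3 (8164 bp) and at the zinc transporter gene SLC39A8 (8027 bp). NR2F1 and the domain near KLF3 were broad in normoxia only, with 8916 and 6035 bp and 8164 and 4922 bp of H3K4me3.

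Where H3K27ac was in both lists, the log2 ratios of H3K4me3 and H3K27ac were weakly related. Across the 1252 domains with both, Spearman's rho between the log2 ratios was 0.11, over points that share the same 4 lists. In the 128 such domains with H3K4me3 at least 1.5-fold longer in hypoxia the median H3K27ac log2 ratio was 1.33, and in the 28 with H3K4me3 at least 1.5-fold shorter it was 0.84. Over all 186 domains at least 1.5-fold longer, the median H3K27ac cover was 8.11% in normoxia and 35.1% in hypoxia. Over all 71 at least 1.5-fold shorter it was 0% and 11.6%, so these had less H3K27ac in both conditions. Domains broad in hypoxia only were covered by H3K27ac over a median of 8.70% in normoxia and 34.2% in hypoxia, and those broad in normoxia only over 6.20% and 22.1%. In each class the hypoxia value was the higher one.

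The domains extended mainly downstream of the gene start, in the direction of transcription. Gene ends were not used, so downstream does not always mean inside the gene. Gene starts and directions could be placed from the table's signed distances for 14772 of 22213 transcripts, with no disagreement between peaks. At the 1068 placed starts whose domain had 1 promoter gene, a median of 1663.5 bp of the domain lay upstream and 5088.5 bp downstream, and 923 (86.4%) had more of it downstream. Over all 1535 placed starts, shared domains included, 1109 (72.2%) did. Promoters with a widest peak of 2 to 5 kb leaned the same way. In the bins centred 1125 bp upstream and downstream, normoxia H3K4me3 covered 34.8% and 74.86% of their starts. At single-gene domains it covered 54.21% and 96.35%. The promoters of 2 to 5 kb were not limited to those with 1 gene, so the sets are not matched in this. In hypoxia the H3K4me3 peak over a single-gene start reached a median of 183 bp farther upstream and 258 bp farther downstream than in normoxia. These edges belong to peaks whose width chose the domains, and the direction of the length difference depended on the list that chose them. Over 12551 paired H3K4me3 peaks of the lists, the median width ratio of hypoxia over normoxia was 1.072. Over all peaks the hypoxia list had the smaller median width, 930 bp beside 1035 bp in normoxia.

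**Figure D5:**
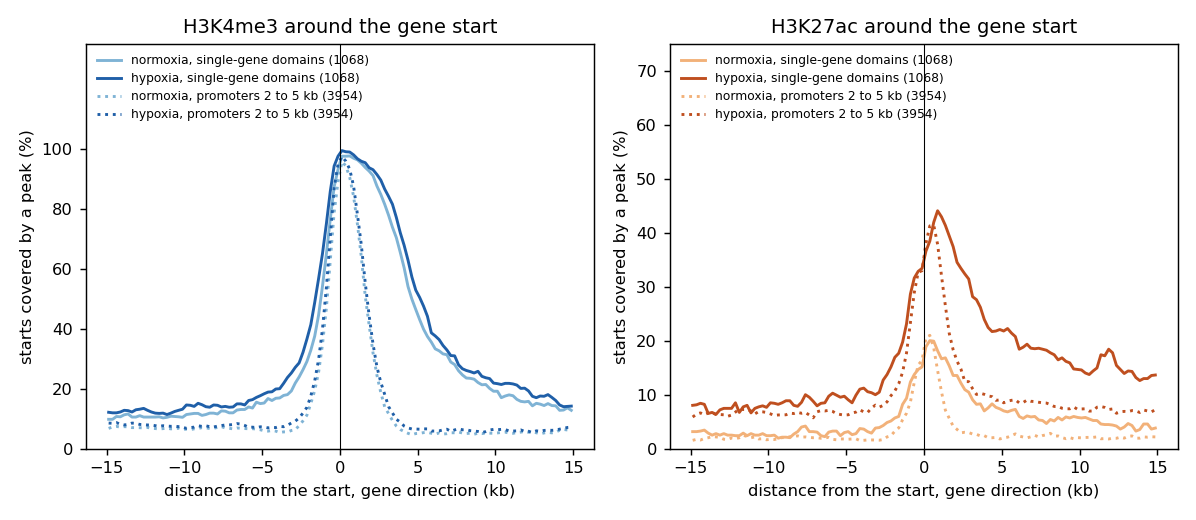
Percentage of gene starts covered by a peak of each list at each distance from the start, for H3K4me3 (left) and H3K27ac (right). Distance is horizontal, in kb and 250 bp bins, and positive downstream of the start. Solid lines are the 1068 starts of single-gene domains and dotted lines 3954 starts with a widest promoter peak of 2 to 5 kb. H3K27ac at the start is alike in both sets. Farther downstream, and less so several kb upstream, it covers more of the domain starts.

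H3K27ac near the start itself was alike at domains and at ordinary promoters, and farther downstream it was more frequent at the domain starts. Within 1 kb of the start it was present at 50.6% of the domain starts in normoxia and 79.5% in hypoxia, close to the 48.7% and 78.2% of promoters with a peak of 2 to 5 kb. At promoters under 2 kb it was 27.6% and 56.7%. In the bin centred 3125 bp downstream, H3K27ac covered 9.08% of single-gene domain starts in normoxia and 28.2% in hypoxia. Promoters of 2 to 5 kb, not limited to those with 1 gene, had 2.73% and 11.1% there. H3K4me3 itself, whose width chose the domains, covered 77.9% and 84.2% of the single-gene domain starts there. H3K27ac was also more frequent beyond the median downstream end of the domains and upstream. In hypoxia it covered 18.45% of single-gene domain starts and 7.28% of the 2 to 5 kb promoters in the bin centred 11875 bp downstream. In normoxia these were 4.49% and 1.82%. The bin is a high one, with 13.76% and 6.98% in hypoxia at 10625 bp. In the bin centred 4875 bp upstream H3K27ac covered 9.08% and 6.3% in hypoxia. Hypoxia H3K4me3 there still covered 18.35% and 7.23% of the starts, and 20.22% and 5.79% at 11875 bp downstream. H3K27ac inside long domains and outside domains thus cannot be told apart in these bins.

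The 331 domains whose broad peaks lay more than 3000 bp from an annotated start resembled the promoter domains in length, with a median of 6846 bp compared with 6740.5 bp. They were annotated as distal intergenic in 126 cases, exon in 78, intron in 72 and, by the table's own class, promoter in 30, and 233 were more than 10 kb from the nearest start. H3K27ac was in both lists at 67.4% of them and at 72.3% of the promoter domains, and in neither at 5.74% and 2.25%. The longest was annotated to NEDD1 on chromosome 1, with H3K4me3 of 28759 and 29493 bp and H3K27ac of 0 and 4957 bp in normoxia and hypoxia. Starts missing from the annotation cannot be told apart from true distal domains here.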

How the data were processed

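The authors deposited 1 table with 4 peak lists, H3K4me3 and H3K27ac in normoxia and hypoxia. Per the file headers its columns are position, genomic class, transcript, distance to the transcription start and gene, with no score, p-value or value per library. Named in the submitters' processing notes are the build galGal6 and the tools ChIPseeker, MACS2, DESeq2 and STAR. Their roles, the peak threshold, the control and whether libraries were pooled before calling are not given in the sources used here. IgG libraries were not analysed here. Since a peak's width moves with depth, threshold and pooling, and depth is unknown, widths of different lists are compared with that limit. The table holds 124414 lines, and repeats of an interval for several transcripts were counted once.

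Domains, covered lengths (summed bases of a list inside a domain, overlap from 1 bp) and shares were computed in Python 3.11.15 with pandas 2.3.3 and scipy 1.17.1. Coverage of all 1755 domains was checked against bedtools 2.31.1, and merging and the placing of starts were tested on simulated data. A start was placed where the signed distances of a transcript's peaks left 1 position and direction. A promoter peak lay within 3000 bp of a start. With 1 list per mark and condition no test was possible, and fixed folds of 1.5 (H3K4me3) and 2 (H3K27ac) describe differences. Intervals are exact binomial at 95% and cover counting only.

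Named genes are the 10 longest promoter domains, the 5 largest differences of each mark in each direction, the 6 longest domains without H3K27ac, domains on each side of the limit, the longest members of each gene list and a fixed set of lens and hypoxia genes. The remaining named list members, the domains away from promoters, BASP1, CHD2 and the crystallin genes without a domain were chosen after their values were seen. Some genes chosen in this way are not reported here. FOXE3, KDM6B, TET3 and LIM2 have no line under these symbols. The domains and gene lists were chosen with earlier results of these data known. Alternatives covered the width limit, the merging gap, the list that chose the domains, the hypoxia scaling, H3K27ac limits and the promoter window.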

Additional observations from a re-analysis of the deposited data

How the results depend on the processing

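No paired analysis was possible because each mark has 1 list per condition and no result comes from a test. For the same reason no library could be left out. Of 32 recomputed values, 16 stayed within the binomial interval (counts within 1.5 times), 15 moved beyond it and 1 turned direction. The median H3K4me3 log2 ratio of 0.13 became -0.086 for domains chosen on the normoxia list alone and 0.22 on the hypoxia list alone; selection on 1 list favours peaks wide in it by construction. With limits of 4000 and 6000 bp there were 2792 and 1168 domains, 60.1% and 54.7% broad in both lists, and 66.0% and 74.1% with H3K27ac in both. At 4000 bp 2619 genes had a promoter domain and the H3K27ac log2 ratio was 1.14. That ratio was 1.13 for domains of the normoxia list alone. H3K27ac was in both lists at 44.5% of domains when it had to cover 10% of the length, and at 61.9% when the hypoxia list was reduced to its widest peaks, as many as in normoxia, which also lowered its median cover to 25.4%. With H3K27ac peaks of at least 500 bp the median cover was 6.74% in normoxia and 28.2% in hypoxia. Width stands in for signal throughout, and the unknown depth limits every comparison between lists.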

Other observations

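Broad domains were found at similar rates across chromosome sizes. Of the H3K4me3 regions with a peak of 2 kb or more, 24.0% held a domain on chromosomes 1 to 5, 22.7% on chromosomes 6 to 10, 20.7% on chromosomes 11 to 33 and 21.7% on chromosome Z. On chromosome W it was 0 of 15. The median H3K27ac cover of a domain in normoxia was 3.84% on Z and 8.96% on chromosomes 1 to 5. In hypoxia the values were closer, at 27.8% and 30.4%. Z had 85 regions holding a domain. Domains also lay close together, with 163 neighbouring pairs within 10 kb and a smallest gap of 278 bp.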
